A study of Rattus norvegicus with 12 samples.

Results

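The cardiac lineage transcription factors described here are the 9 genes Tbx5, Tbx20, Gata4, Gata6, Hand2, Mef2c, Nkx2-5, Meis1 and Isl1, taken by gene symbol from the 22850 features of the deposited RNA sequencing tables. All 9 symbols were found, each as 1 row, and all 9 passed the filter on low counts in each of 3 comparisons. The cells were primary fibroblasts from the atria of newborn Sprague-Dawley rats, separated from cardiomyocytes by differential adhesion, a step that enriches fibroblasts without sorting them. Every culture received 1 µmol/L angiotensin II (AngII), a peptide hormone that activates cardiac fibroblasts, in medium with little serum, and RNA was taken after 48 h. The AngII group received nothing else. The AngII+HNG group was pretreated for 1 h with 10 µmol/L HNG, a glycine-substituted and more potent analogue of the mitochondrial peptide humanin. The AngII+MOTS-c group was pretreated for 1 h with 5 µmol/L MOTS-c, another peptide encoded in mitochondrial DNA, so the 2 peptides were used at different doses. Each group had 4 libraries, and no group without AngII is analysed here, so the values describe what a peptide added to AngII and not what AngII did. The methods describe the libraries of a group as biological replicates, and the p-values measure the spread between them.

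These factors form the core regulatory network of the developing heart. T-box proteins (Tbx5, Tbx20), zinc finger proteins (Gata4, Gata6), the homeodomain protein Nkx2-5, the MADS-box protein Mef2c and the basic helix-loop-helix protein Hand2 bind near one another in the control regions of myocyte genes, and many of them act as partners. Isl1 marks progenitor cells of the second heart field, and Meis1 is a homeodomain protein that limits the division of postnatal cardiomyocytes. Cardiac fibroblasts come from the epicardium and endocardium and keep part of this programme, in particular Gata4, Gata6, Tbx20 and Hand2, whereas Nkx2-5 is best known from myocytes.

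In these cultures Tbx20 was the most abundant of the 9 per length, and it was also the member that HNG moved most. Tbx20 was 1.26-fold higher in AngII+HNG than in AngII, at 486 ± 28.5 against 386 ± 9.92 on the counts-per-million scale (CPM, mean ± SD, n = 4 each), and Meis1 was lower, at 27.0 ± 1.60 against 31.4 ± 1.43 CPM. MOTS-c moved none of the 9 past the test. The rise of Tbx20 passed the test in every alternative fit tried, and the fall of Meis1 did not.

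Tbx20 and Meis1 moved in opposite directions, so the sequences around their annotated starts are shown side by side. Each window runs from 250 bases before to 50 bases after the start listed by RefSeq on the rat build GRCr8, on the gene's own strand, and the capitals mark CG dinucleotides. Tbx20 lies at chr8:31533960-31534259 on the minus strand and Meis1 at chr14:97495034-97495333 on the minus strand. The windows held 26 CG dinucleotides and 65.3% G or C in Tbx20, and 9 CG dinucleotides and 43.7% G or C in Meis1, where the median over 33469 promoter windows was 7 CG dinucleotides and 51.7%. The counts do not show which start was used in these cells.
Tbx20: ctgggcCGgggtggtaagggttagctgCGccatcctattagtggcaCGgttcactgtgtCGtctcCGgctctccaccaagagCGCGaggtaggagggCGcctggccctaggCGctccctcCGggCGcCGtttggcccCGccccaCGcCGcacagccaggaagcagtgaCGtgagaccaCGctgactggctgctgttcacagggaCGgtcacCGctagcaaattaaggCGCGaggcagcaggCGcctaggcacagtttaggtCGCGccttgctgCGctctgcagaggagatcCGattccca
Meis1: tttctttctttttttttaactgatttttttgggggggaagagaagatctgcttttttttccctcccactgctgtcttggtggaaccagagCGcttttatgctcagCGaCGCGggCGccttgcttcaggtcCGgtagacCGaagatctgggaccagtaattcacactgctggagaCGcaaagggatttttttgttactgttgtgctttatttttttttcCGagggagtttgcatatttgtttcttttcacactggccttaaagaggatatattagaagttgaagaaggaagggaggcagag

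Short words modelled on the binding sites of the members were searched on both strands of these windows. For Gata factors these were AGATAA as well as AGATAG, and further TGATAA as well as TGATAG, and for T-box factors AGGTGT. The others were TNAAGTG for Nkx2-5, TGACAG for Meis factors, CTANNNNTAG for Mef2 and CATCTG for Hand2, where N is any base. The Mef2 word leaves its middle bases open, so it is looser than a Mef2 site. Positions count from the annotated start. The Gata set occurs in 30.3% of all promoter windows, followed by 13.6%, 11.5%, 19%, 3.84% and 16.6% in the order given. The windows of Tbx20 and Meis1 held none of them. Hand2 held 1 Gata word at position -172 and 1 Hand2 word at position -243 from its start, and Isl1 held 1 Gata word at -248. Tbx5 held 1 Gata word at -225, 1 Meis word at -240 and 1 Hand2 word at 30. Gata6 held 1 Meis word at -207 and 1 T-box word at 26, and Nkx2-5 held 1 Meis word at -123. Of the 9 members, 7 were in the promoter table, and Gata4 and Mef2c were not. These matches describe the letters of 1 annotated window per gene and do not show binding.

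Each library held between 27960586 and 38322354 counts, of which the 9 members together took between 730 and 902 CPM before scaling. A count of 3, taken as the floor of detection, was worth 0.0786 to 0.107 CPM in these libraries. Values below are CPM after scaling by the trimmed mean of M values (TMM) over all 12 libraries, and each value carries the error of counting, which is smallest for Tbx20. The members differed widely in depth, from 14 to 34 counts per library for Isl1 to 10626 to 19151 for Tbx20. Tbx20 alone supplied 53.5% of the counts of the 9 members and Gata4 another 21.1%. AngII+HNG replicate 3 stood apart from its group over all genes. Its counts differed from those of the other AngII+HNG libraries by a chi-square of 14.3 to 19.4 per gene, against 4.40 to 9.004 for every other pair of libraries within a group, so the values of Tbx20 and Meis1 with HNG are also given without it.

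Levels of different genes were compared per length, on the deposited FPKM values, in which fragment counts are scaled by gene length and library total. Over the 12 libraries the order was Tbx20 with 64.8 ± 8.17 FPKM, Gata4 with 47.4 ± 1.70, Gata6 with 28.6 ± 1.52, Hand2 with 15.4 ± 1.07, Meis1 with 11.2 ± 0.914, Nkx2-5 with 8.46 ± 1.03, Mef2c with 6.62 ± 0.262, Tbx5 with 2.98 ± 0.426 and Isl1 with 0.258 ± 0.0829. Each member lay above the next in 12 of 12 libraries. Across libraries the ranges of Meis1 and Nkx2-5 overlapped, as did those of Nkx2-5 and Mef2c, and the other neighbours did not. Tbx20 stood at rank 1001 and Gata4 at rank 1447 of the 22850 features by mean FPKM, and Isl1 at rank 13563.

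**Figure D1:**
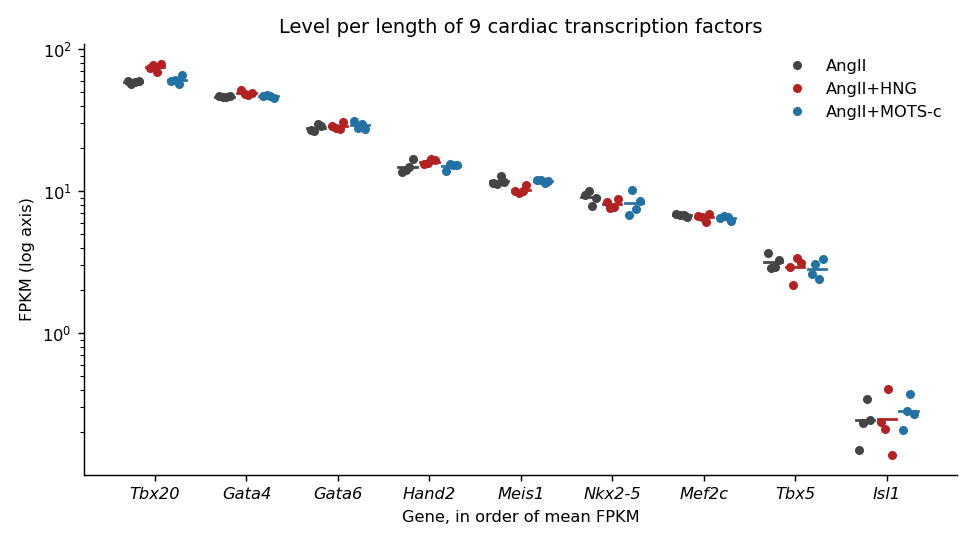
Deposited FPKM of the 9 transcription factors on a log axis, in descending order of the mean over 12 libraries. Each point is 1 library (AngII in grey, AngII+HNG in red, AngII+MOTS-c in blue) and each bar a group mean. Tbx20 leads at a mean of 64.8 and Isl1 lies lowest at 0.258, and the AngII+HNG points of Tbx20 stand above those of both other groups.

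The levels of close relatives show which member of each family these cultures carried. Among T-box genes, Tbx18 (8.61 FPKM) lay between Tbx20 and Tbx5, and Tbx2 (1.52), Tbx3 (0.531), Tbx15 (0.102) and Tbx1 (0.0299) lay lower. Gata3 (3.40 FPKM), Gata5 (1.96) and Gata2 (1.29) were all far below Gata4 and Gata6. Mef2a (28.7 FPKM) and Mef2d (18.6) exceeded Mef2c, whereas Mef2b was listed at 0.0798. Hand1, the paralogue of Hand2, was at 0.268 FPKM. Meis2 (10.9 FPKM) and Meis3 (8.23) were close to Meis1. Isl2 was at 0.0263 FPKM, and Nkx2-6 had 0 counts in all 12 libraries.

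The first comparison asked what HNG added to AngII. In AngII the 4 libraries gave 392, 372, 384 and 395 CPM of Tbx20, a T-box repressor and activator needed for chamber growth and valve formation. In AngII+HNG they gave 479, 502, 449 and 513 CPM. All 4 AngII+HNG libraries lay above all 4 AngII libraries, and replicate 3, the library that stood apart, was the lowest of the former. The log2 fold change was 0.34 (standard error 0.0443, 95% interval 0.24 to 0.43), with an adjusted p of 0.00102 from the edgeR quasi-likelihood test with Benjamini-Hochberg adjustment over 14524 genes. Without AngII+HNG replicate 3 the log2 fold change was 0.37 (adjusted p 0.000116 in the same test). Tbx20 was the 67th gene in that comparison by p, from the lowest.

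Meis1 went the other way. The AngII libraries gave 30.3, 30.6, 33.4 and 31.3 CPM and the AngII+HNG libraries 27.1, 25.3, 26.4 and 29.1 CPM. Here too the groups did not overlap, with the highest AngII+HNG library at 29.1 and the lowest AngII library at 30.3. The log2 fold change was -0.22 (standard error 0.0570, 95% interval -0.34 to -0.092), with an adjusted p of 0.0443 in the edgeR quasi-likelihood test. This call lay close to the threshold of 0.05. It was lost on leaving out any 1 of the AngII libraries, or replicates 1, 2 or 3 of AngII+HNG, with adjusted p from 0.0628 (without AngII+HNG replicate 3) to 0.126, and also in limma on the FPKM values (0.0842 with a pseudocount of 1).

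With these 2, HNG moved 2 of 9 members past an adjusted p of 0.05, where 5.98% of all genes tested were called. The groups were without overlap for the same 2 members, against 13.6% of all genes. The rule that chose the 9 genes used no measured value, but they were picked with earlier results of these data known.

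**Figure D2:**
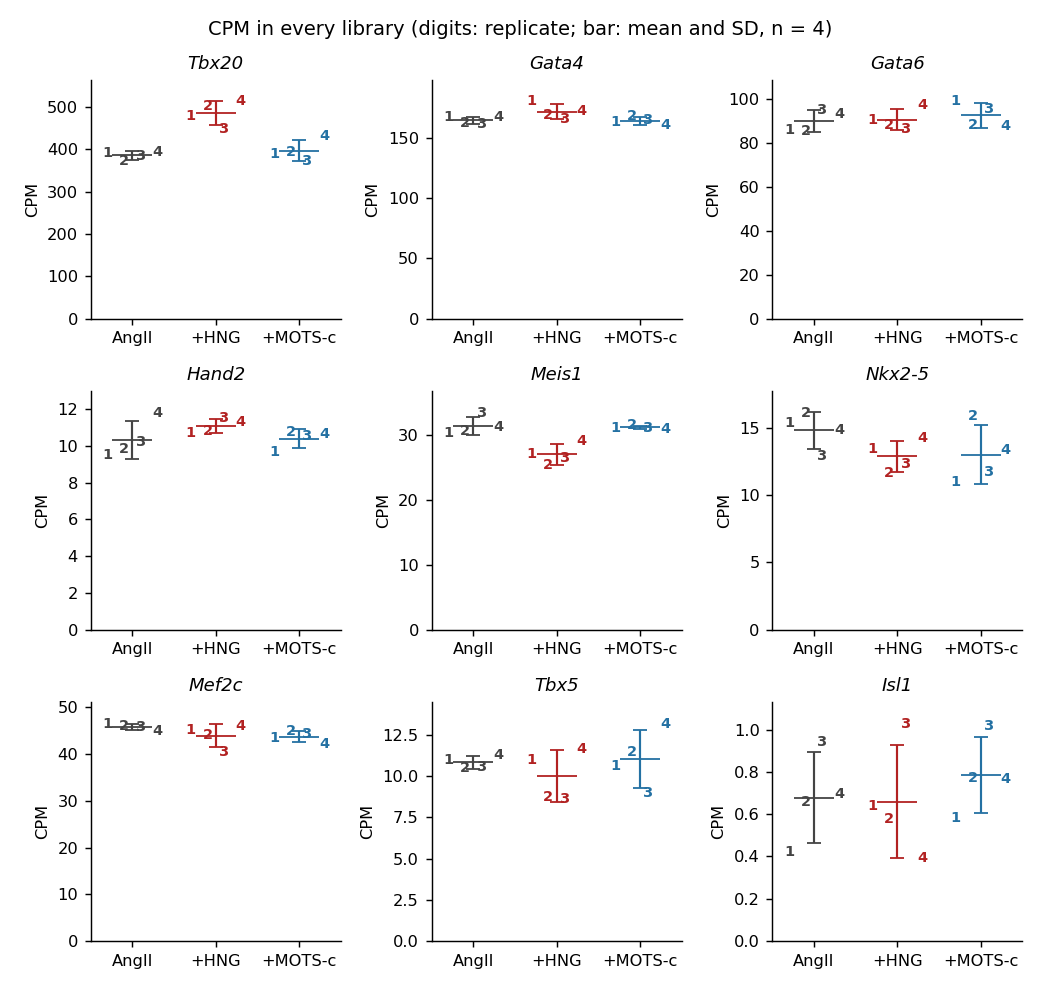
CPM of each of the 9 members in all 12 libraries, 1 panel per gene with a linear axis from 0. Digits are replicate numbers, and bars give the mean and SD of 4 libraries. The 4 AngII+HNG digits stand above every AngII and AngII+MOTS-c digit for Tbx20 and below all of them for Meis1, and the groups of the other panels overlap or, for Mef2c in AngII+MOTS-c against AngII, touch.

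Nkx2-5, the homeodomain factor of myocyte specification, came nearest among the members not called. Its AngII libraries gave 15.3, 16.1, 12.9 and 14.8 CPM and its AngII+HNG libraries 13.4, 11.6, 12.3 and 14.2 CPM. None of the 4 AngII+HNG libraries exceeded the AngII mean of 14.8, but AngII replicate 3 lay below 2 of them. The log2 fold change was -0.20 (standard error 0.0874, 95% interval -0.39 to -0.0093), with an adjusted p of 0.224 in the edgeR quasi-likelihood test.

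Gata4, Gata6 and Hand2, the factors most often found in cardiac fibroblasts, were not called. Gata4 gave 167, 162, 162 and 167 CPM in AngII and 180.3, 169, 166 and 172 in AngII+HNG. Although 4 of 4 AngII+HNG libraries lay above the AngII mean of 165, the groups overlapped and the log2 fold change of 0.065 had a 95% interval from -0.016 to 0.15. Gata4 overlaps an annotated long non-coding RNA in RefSeq, and because the strand setting of the counting is not given in the sources used here, reads of the 2 cannot be told apart. Gata6 gave 85.8, 85.3, 95.3 and 93.1 CPM in AngII and 90.6, 88.3, 86.4 and 97.2 in AngII+HNG, a difference of 0.015 on the log2 scale with an interval from -0.094 to 0.12. Hand2 gave 9.48, 9.84, 10.2 and 11.8 CPM in AngII and 10.7, 10.8, 11.5 and 11.3 in AngII+HNG. In Hand2 4 of 4 treated libraries exceeded the AngII mean of 10.3, yet AngII replicate 4 was the highest of all 8, and the interval of the log2 fold change ran from -0.083 to 0.29.

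Mef2c, Tbx5 and Isl1 were likewise not called. Mef2c, which also overlaps an annotated long non-coding RNA, gave 46.5, 46.1, 45.8 and 45.0 CPM in AngII and 45.2, 44.2, 40.4 and 46.1 in AngII+HNG, with AngII+HNG replicate 3 lowest. Tbx5, the T-box factor of the atria and the conduction system, gave 11.0, 10.5, 10.6 and 11.3 CPM in AngII and 11.0, 8.73, 8.61 and 11.7 in AngII+HNG. The AngII+HNG libraries of Tbx5 thus split into 2 lower and 2 higher ones, and their SD of 1.57 CPM was larger than the AngII value of 0.376. Isl1 was near the low end of what the depth resolves, with 0.420, 0.656, 0.943 and 0.693 CPM in AngII and 0.640, 0.577, 1.03 and 0.394 in AngII+HNG. The 95% interval of the Isl1 log2 fold change, -0.75 to 0.68, covered changes of more than 1.5-fold in either direction.

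For Tbx5 the unit mattered. The length implied by the ratio of its count to its FPKM ranged from 2573 to 4041 bases among libraries, while for Tbx20 it stayed between 6500 and 6542, so the deposited FPKM values did not rest on 1 fixed length per gene. AngII+HNG replicate 3 had the lowest Tbx5 CPM of its group (8.61) and the highest FPKM (3.39). The order of Tbx5 libraries within a group therefore depended on which of the 2 tables was read, and the tests here used the counts.

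The second comparison asked what MOTS-c added to AngII, against the same 4 AngII libraries. It called 0 of 9 members, where 0.0069% of all genes were called (1 of 14488). No member had an unadjusted p below 0.05 in edgeR, and DESeq2 and limma also called 0. Tbx20 gave 388, 395, 372 and 432 CPM in AngII+MOTS-c, with 3 of these values between 372 and 395, as in AngII, and replicate 4 above them. Its log2 fold change was 0.042 (95% interval -0.047 to 0.13). Meis1 gave 31.1, 31.5, 31.1 and 30.9 CPM, all within the AngII range, and its interval ran from -0.11 to 0.088.

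The groups were without overlap for 1 member in this comparison, Mef2c, against 3.44% of all genes, and only by a margin smaller than the printed precision. Mef2c gave 43.4, 45.0, 44.4 and 42.2 CPM in AngII+MOTS-c, with replicate 2 level with AngII replicate 4 at 45.0. On the FPKM scale the groups overlapped, since AngII+MOTS-c replicate 2 stood at 6.72 and AngII replicate 4 at 6.59. The Mef2c log2 fold change of -0.067 (95% interval -0.15 to 0.013) did not pass the edgeR quasi-likelihood test, with an adjusted p of 0.924. Nkx2-5 had the lowest fitted log2 fold change of the 9 here. It gave 11.0, 15.9, 11.7 and 13.4 CPM in AngII+MOTS-c, a wide spread in which replicate 2 exceeded 3 of the 4 AngII libraries, and its log2 fold change was -0.19 (95% interval -0.42 to 0.045).

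The other 5 members gave intervals that held 0. Gata4 (163, 168, 165 and 160.4 CPM) had an interval of -0.065 to 0.059, the narrowest of the 9. Gata6 gave 98.9, 88.1, 95.6 and 87.8 CPM in AngII+MOTS-c and an interval of -0.061 to 0.15. Hand2 gave 9.65, 10.7, 10.6 and 10.7 CPM and an interval of -0.17 to 0.18. Of these 5, Tbx5 and Isl1 had the widest intervals. Tbx5 gave 10.6, 11.5, 8.97 and 13.2 CPM with an interval of -0.18 to 0.24, and Isl1 gave 0.579, 0.773, 1.02 and 0.765 CPM with an interval of -0.40 to 0.81.

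**Figure D3:**
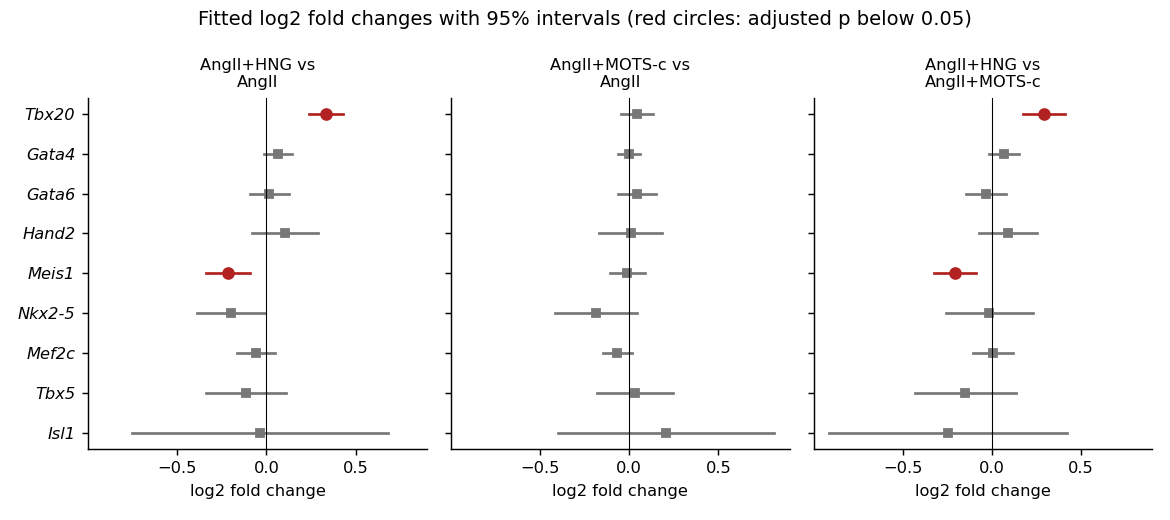
Fitted log2 fold change of each member with its 95% interval, 1 panel per comparison. Red circles mark an adjusted p below 0.05 in the edgeR quasi-likelihood test and grey squares the others. Tbx20 is to the right of 0 and Meis1 to the left in both panels that hold AngII+HNG, at 0.34 and -0.22 against AngII, and the intervals of all 9 members hold 0 for AngII+MOTS-c against AngII.

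The comparison of AngII+HNG with AngII+MOTS-c tests the difference between the treatments directly, at their different doses. It called 2 of 9 members, the same Tbx20 and Meis1, where 4.41% of all genes were called, and the groups did not overlap for these 2, against 12.5% of all genes. Tbx20 was higher by 0.29 on the log2 scale (standard error 0.0541, 95% interval 0.17 to 0.41), with an adjusted p of 0.00907 in the edgeR quasi-likelihood test, and by 0.32 (adjusted p 0.00296) without AngII+HNG replicate 3. Meis1 was lower, with a log2 fold change of -0.21 (standard error 0.0541, 95% interval -0.33 to -0.091) and an adjusted p of 0.0487 in the edgeR quasi-likelihood test. This call was lost in 15 of 21 alternatives, with adjusted p up to 0.134. These were, among others, no filter, both limma fits, replicates 2 and 3 summed, and leaving out any 1 library other than AngII+HNG replicate 4. Without AngII+HNG replicate 3 the adjusted p of Meis1 was 0.0711 in the edgeR quasi-likelihood test. Nkx2-5, by contrast, stood at nearly the same mean under both peptides (12.9 ± 1.15 and 12.99 ± 2.18 CPM), with an interval of -0.26 to 0.23. Gata4 and Hand2 each had 4 of 4 AngII+HNG libraries above the AngII+MOTS-c mean, with intervals of -0.019 to 0.15 and -0.072 to 0.25.

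The list of other heart factors and cofactors held 64 genes, of which 57 were tested against AngII. With HNG 1 rose and 7 fell, where 5.98% of all genes were called, and the median log2 fold change was -0.062 against 0.0043 over all genes tested. Tcf21, the basic helix-loop-helix factor of the epicardial fibroblast lineage, rose from 136 ± 5.30 to 165 ± 11.9 CPM (log2 fold change 0.28, adjusted p 0.00746, edgeR quasi-likelihood test). Heyl and Hey2, repressors downstream of Notch receptors, fell by 0.49 and 0.24 on the log2 scale. Nr2f2, which supports atrial identity, fell by 0.40, and the forkhead factors Foxc2 and Foxp1 fell by 0.37 and 0.20. Gata3 fell by 0.29 and Srf, a partner of Gata4 and Nkx2-5 on muscle genes, by 0.18. The calls of Tcf21, Heyl, Nr2f2 and Foxc2 were kept in all alternatives, whereas the number that fell ranged from 3 to 8. It was 3 without AngII replicate 1, 2 or 3 or AngII+HNG replicate 2 or 4, in both limma fits, with replicates 2 and 3 summed, with the cardiomyocyte marker level as a covariate and without the libraries numbered 4. In each of these the calls of Gata3, Srf, Hey2 and Foxp1 were lost.

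Myocyte and conduction genes known as targets of these factors numbered 40, and all were tested. With HNG 2 rose and 0 fell, where 5.98% of all genes were called, and the median log2 fold change was 0.025. At an unadjusted p below 0.05 in edgeR 7 of the 40 were higher and 4 lower, against 11.1% and 9.16% of all genes. DESeq2 called 3 higher and limma 2, and both called 0 lower. With the replicate number as a block 6 were higher and 1 lower, and with the cardiomyocyte covariate 2 were higher and 1 lower. Gja5, which encodes connexin 40 and is a target of Tbx5 and Nkx2-5, rose from 14.05 ± 0.953 to 19.8 ± 2.49 CPM (0.50 on the log2 scale, adjusted p 0.00603 in the edgeR quasi-likelihood test). Between the peptides Gja5 was not called (0.34, adjusted p 0.125 in the same test), except with the replicate block and with the cardiomyocyte covariate. Tnni3, cardiac troponin I, rose from 26.2 ± 2.58 to 35.4 ± 4.40 CPM (0.43, adjusted p 0.0131), and this call was lost without AngII replicate 1, 2 or 3 and with replicates 2 and 3 of each group summed. With MOTS-c 0 genes of either list were called by edgeR, DESeq2 or limma. At an unadjusted p below 0.05 in edgeR 1 of the heart factors was lower, and 1 of the myocyte genes was higher and 3 lower, where 2.44% of all genes were higher and 2.61% lower. Between the peptides Tcf21 (0.35) and Tnni3 (0.54) were higher with HNG, and Heyl (-0.49), Foxc2 (-0.36) and Nr2f2 (-0.25) lower, out of 56 factors and 40 myocyte genes tested, where 4.41% of all genes were called. The Nr2f2 call between the peptides was lost in several alternatives, among them limma and leaving out AngII+HNG replicate 2 or AngII+MOTS-c replicate 2 or 3.

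**Figure D4:**
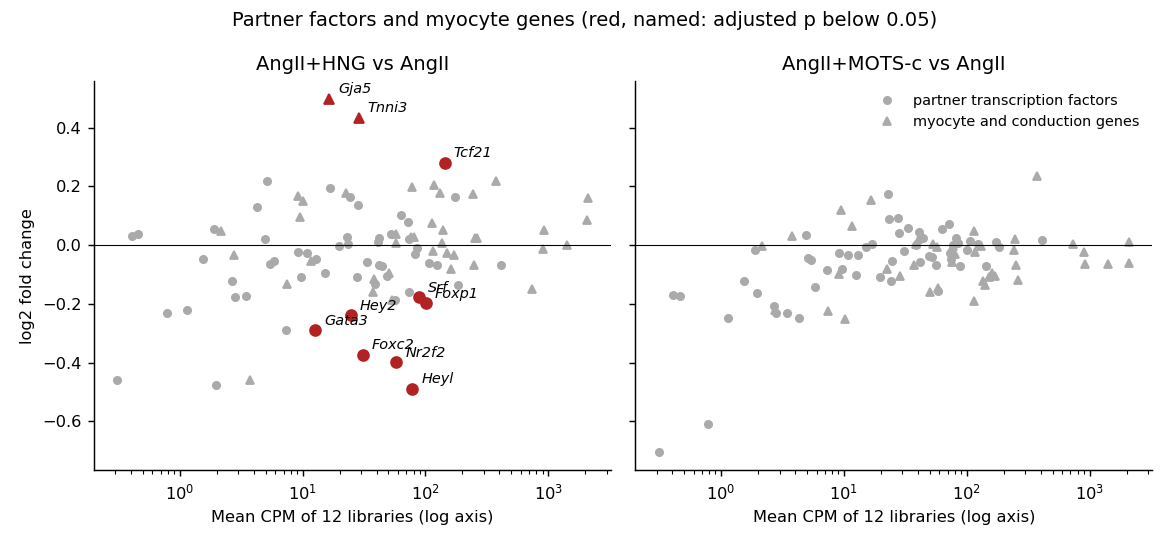
Log2 fold change against mean CPM (log axis) for the heart factors (circles) and the myocyte and conduction genes (triangles), with HNG on the left and MOTS-c on the right, both against AngII. Red symbols with names passed an adjusted p of 0.05. With HNG 8 factors and 2 myocyte genes are named, from -0.49 for Heyl to 0.50 for Gja5, and with MOTS-c none.

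The cultures held transcripts of several cell types, and their levels stand beside these results. Fibroblast markers were abundant, with Col1a1 at 4234 FPKM, Pdgfra at 32.6 and Dcn at 71.0. Cardiomyocyte markers were abundant too, with Nppa at 2446 FPKM, Myh6 at 333, Myl7 at 182 and Tnni3 at 34.1. The summed CPM of 14 cardiomyocyte markers was 7833 to 8831 in AngII, 8080 to 9450 in AngII+HNG and 7167 to 9345 in AngII+MOTS-c, and 3 of the 4 AngII+HNG sums lay above the highest AngII sum. Of the 14, 1 (Tnni3) was called with HNG, where 5.98% of all genes were called. The count was 0 without AngII replicate 1, 2 or 3 and with replicates 2 and 3 summed. It was 2, with Ttn, without AngII replicate 4, without AngII+HNG replicate 3, without the libraries numbered 4, in DESeq2 and with the library name number as a block, and 3, with Myh6, with the replicate block. With the marker level as a covariate Tnni3 was called higher and Myh7 lower. In bulk RNA, fewer cells of a type and less RNA per cell cannot be told apart, so a change of a member cannot be assigned to one cell type. Tbx20 correlated with the cardiomyocyte marker sum at r = 0.55 over 12 libraries and at 0.68 after removing group means, with the fibroblast sum at 0.36 and 0.85, with the endothelial sum at 0.88 and 0.14, with the macrophage sum at 0.76 and 0.29, and with the smooth muscle and pericyte sum at -0.71 and 0.67. Nkx2-5 correlated with the cardiomyocyte sum at 0.45 and 0.61 and with the smooth muscle and pericyte sum at 0.64 and 0.83. For both genes the sum of at least 1 other list gave a higher value than the cardiomyocyte sum. Meis1 correlated with the cardiomyocyte sum at -0.35 and -0.11 and with the fibroblast sum at 0.090 and 0.24. For the endothelial sum its values were -0.76 and 0.46, and for the macrophage sum -0.49 and 0.54. The smooth muscle and pericyte sum gave 0.77 and -0.030 for Meis1. These libraries share their total and scaling, and the values are descriptions without a test. With the marker level as a covariate, an alternative chosen after seeing the data, the log2 fold change of Tbx20 against AngII was 0.31 (adjusted p 0.00615, edgeR quasi-likelihood test) and that of Meis1 was -0.20 (adjusted p 0.142).

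**Figure D5:**
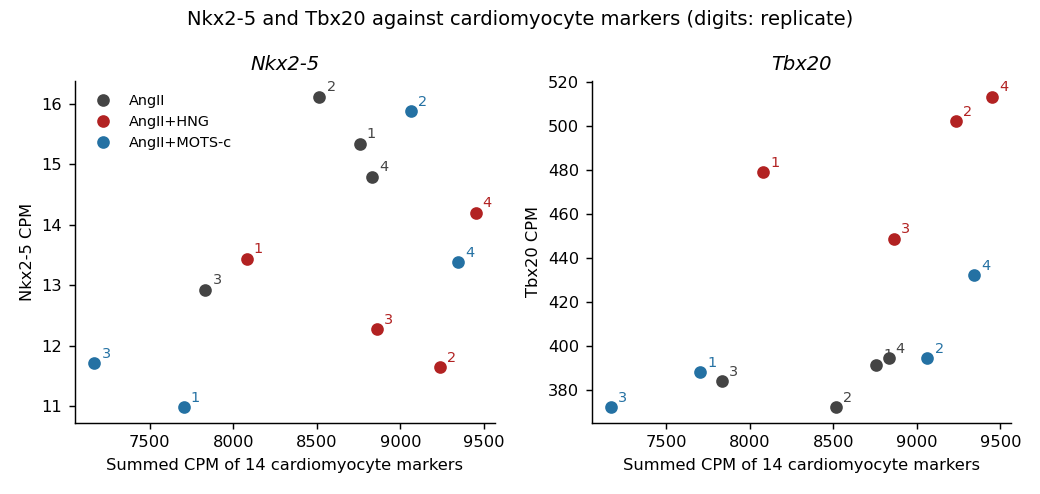
CPM of Nkx2-5 (left) and Tbx20 (right) in each library against the summed CPM of 14 cardiomyocyte markers, with digits for replicates and axes that do not start at 0. The AngII+HNG libraries of Tbx20 lie between 449 and 513 CPM, above the other groups, with 3 of their 4 marker sums above the highest AngII sum of 8831, and the Nkx2-5 points of the 3 groups are mixed.

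Markers of other cell types did differ with HNG. The sum of 8 endothelial markers was 75.01 to 84.2 CPM in AngII, 96.5 to 106 in AngII+HNG and 79.6 to 84.4 in AngII+MOTS-c. Of these, 4 of 8 rose with HNG, Egfl7, Kdr, Tek and Tie1, where 5.98% of all genes were called. The defining markers Pecam1 and Cdh5 were not called (0.15 and 0.25 on the log2 scale, adjusted p 0.373 and 0.0859, edgeR quasi-likelihood test). Vwf (0.18) was not called either, and Emcn had a log2 fold change of -0.19. The endothelial count was 2 without AngII replicate 1 or 2 or AngII+HNG replicate 2 or 4, 2 with the cardiomyocyte covariate, and 1 without the libraries numbered 4. The sum of 8 macrophage markers was 124 to 152, 149 to 203 and 127 to 148 CPM in the same order of groups, and 3 of the 7 tested rose, Cd68, Mrc1 and Ptprc. The Ptprc call was lost without AngII replicate 1, 2 or 3 or AngII+HNG replicate 4, with replicates 2 and 3 summed and with the covariate, and both blocks added Csf1r. Adgre1, another macrophage marker of the list, had a log2 fold change of -0.36 with HNG (3.37 ± 0.354 to 2.62 ± 0.438 CPM, adjusted p 0.185 in the edgeR quasi-likelihood test), and C1qb one of -0.046. The sum of 8 smooth muscle and pericyte markers was 1393 to 1485 CPM in AngII, 1156 to 1248 in AngII+HNG and 1294 to 1448 in AngII+MOTS-c, and 3 of 8 fell, Myh11, Notch3 and Mcam. Of the defining genes of these lists, Pecam1 was at 3.07 FPKM, Cdh5 at 3.95, Ptprc at 3.56, C1qa at 5.26, Myh11 at 22.9 and Kcnj8 at 1.12. Epicardial markers summed to 58.7 to 73.7 CPM and Schwann cell markers to 10.04 to 13.3 over all libraries. Of 8 epicardial markers 1 was called with HNG, Upk1b, where 5.98% of all genes were called. Upk1b rose by 0.81 on the log2 scale (adjusted p 0.00776, edgeR quasi-likelihood test). It was also higher than with MOTS-c by 0.87 (adjusted p 0.00324, same test), and both calls were kept in every alternative fit. The defining epicardial markers Upk3b and Msln had log2 fold changes of 0.14 and -0.033 with HNG and were not called. Krt19 stood at -0.39 and Wt1 at -0.047, and 5 of the 8 lay above 0. Of 5 Schwann cell markers tested, edgeR, DESeq2 and limma called 0 in each comparison, and at an unadjusted p below 0.05 in edgeR 1 was higher with MOTS-c and 0 differed with HNG. Of 10 fibroblast markers 1 rose with HNG, a count that was 0 without AngII replicate 1 or 3 or AngII+HNG replicate 2 and with the covariate, and 3 with the replicate number or the library name number as a block, and their sum ranged from 63439 to 71622 CPM. The part of these cell types in the changes of Tbx20 and Meis1 was not tested.

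The members did not vary as a block. Over the 12 libraries the log2 CPM of Tbx20 and Meis1 correlated at r = -0.78, but at 0.16 after removing group means. Tbx5 and Tbx20 showed the reverse, with r = -0.051 over 12 libraries and 0.74 within groups. Among 12189 genes, those whose log2 CPM was most like that of Tbx20 were Lama2 (r = 0.98), a basement membrane laminin chain, and Enpp1 (0.98), an enzyme that makes pyrophosphate. Those most like Meis1 were Arid4a and Rnf145 (both 0.92), and those most like Nkx2-5 were Pld5 (0.96) and Sds (0.90). Isl1, below the mean of 1 CPM required, was not searched. The highest values for the other 5 members were 0.93 for Tbx5 with Sdk2, 0.89 for Gata4 with Ttc30a, 0.86 for Gata6 with Nsmce4a, 0.92 for Hand2 with Ablim3 and 0.90 for Mef2c with Eif1. These are the highest of many values over 12 libraries and describe likeness of pattern only.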

How the data were processed

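RNA was measured in 12 libraries, 4 for each of AngII, AngII+HNG and AngII+MOTS-c, grouped by their titles. Per the labels and methods, mRNA libraries were read as paired ends on a DNBSEQ instrument. The authors deposited raw read counts (whole numbers, not normalized) and FPKM values of the same genes. The submitters' processing notes name HISAT2, Picard 1.41 and SAMtools 0.1.18. The counting tool, strand setting, annotation and genome build are not given in the sources used here. Totals were 27960586 to 38322354 counts per library, and floors of 3 counts cover counting error only. The 95% intervals of fold changes come from the fit and include the spread between libraries.

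Counts were tested in R 4.3.3 with edgeR 4.0.16 (filterByExpr, TMM, glmQLFit and glmQLFTest, two-sided) on the 8 libraries of each comparison, with Benjamini-Hochberg adjustment over all genes and a threshold of 0.05. Both peptide groups were compared with the same AngII libraries, so these 2 comparisons are not independent. Log2 CPM used a prior count of 2. The computation was tested on simulated data. The members and lists were chosen with earlier results of these data known. Named were all members, their paralogues by FPKM (some are not reported here), every called gene of the factor and myocyte lists, defining cell type markers and the 2 genes most like each member with a mean of at least 1 CPM, of which 1 is printed for some members. Mcam, Notch3, Upk1b and other markers that moved were named after their values were seen.

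Alternatives were RLE size factors, DESeq2 1.42.0, no filter, a minimum of 10 counts in each library, a joint fit of the 12 libraries, the replicate number or the library name number as a block, replicates 2 and 3 summed (their library names share a number), limma 3.58.1 on log2(FPKM + 1) or log2(FPKM + 0.1) for genes with a mean FPKM of at least 0.1, robust estimation, and leaving out each library. Omitting the libraries numbered 4 and a cardiomyocyte marker covariate were added after seeing the data.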

Additional observations from a re-analysis of the deposited data

How the results depend on the processing

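Tbx20 passed the threshold in all 21 alternatives of both HNG comparisons, with log2 fold changes of 0.31 to 0.37 against AngII and 0.25 to 0.34 against AngII+MOTS-c. Meis1 kept its direction but was called in 9 of 21 and 6 of 21. The number of members called against AngII, 2, became 1 with libraries 2 and 3 summed, in both limma fits, without the libraries numbered 4 and with the covariate, and lay between 1 and 2 on leaving out 1 library. Against AngII+MOTS-c it became 1 in those settings and also with no filter, with 10 counts in every library and with the library name number as a block, and again lay between 1 and 2 on leaving out 1 library. For MOTS-c against AngII it was 0 throughout.

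Deviations from group means were correlated between libraries of the same replicate number. The mean was 0.0186 for HNG against AngII, 0.0752 for MOTS-c against AngII and 0.112 between the peptides. At least 1 pair lay under 0.1 in each comparison. Replicate 4 gave the highest value in each, at 0.119, 0.134 and 0.245. Between the peptides replicates 2 and 3 also exceeded 0.1, at 0.112 and 0.102. Such values cannot decide whether the replicate numbers pair the libraries. With the replicate block 2, 0 and 2 members were called, with Tbx20 at 0.33 and Meis1 at -0.22 against AngII. The block raised the number of all genes called from 869 to 1111 for HNG against AngII. That number rose from 637 to 1054 between the peptides and from 1 to 2 for MOTS-c against AngII. Myocyte genes called with HNG against AngII went from 2 higher and 0 lower to 6 higher and 1 lower. Between the peptides they went from 1 higher and 0 lower to 10 higher and 2 lower. All genes called against AngII fell from 869 to 577 with libraries 2 and 3 summed, 541 without the libraries numbered 4, 429 with the covariate and 431, 485 and 512 without AngII replicate 1, 2 or 3. Between the peptides 637 became 1034 in DESeq2, 975 with all 12 libraries, 423 in limma with 0.1, 377 without the libraries numbered 4, 416 without AngII+HNG replicate 2, and 324, 322 and 389 without AngII+MOTS-c replicate 1, 2 or 3. For MOTS-c it was 0 to 4.

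Members that were not called changed sign as follows. HNG against AngII: Isl1 was 0.0024 in limma with 1, 0.17 without the libraries numbered 4, 0.20 with the covariate and -0.34 to 0.16 on leaving out 1 library. Gata6 was -0.0028 without the libraries numbered 4 and -0.020 to 0.041 on leaving out 1 library. MOTS-c against AngII: with the library name block Gata4 was 0.0055 and Gata6 -0.012, and with libraries 2 and 3 summed Hand2 was -0.013. In limma with 1 and 0.1 Tbx5 was -0.13 and -0.16, Gata4 0.0051 and 0.0052, and Meis1 0.0056 and 0.0062. Without the libraries numbered 4 Tbx5 was -0.041 and Gata4 0.016. Leaving out 1 library gave -0.014 to 0.0079 for Gata4, -0.032 to 0.079 for Hand2, -0.062 to 0.12 for Tbx5, -0.028 to 0.021 for Meis1 and -0.0012 to 0.071 for Tbx20. HNG against MOTS-c: with the library name block Gata6 was 0.0012 and Mef2c -0.011, with libraries 2 and 3 summed Nkx2-5 was 0.031, in limma with 1 and 0.1 Tbx5 was 0.018 and 0.022, and without the libraries numbered 4 Mef2c was -0.032. Leaving out 1 library gave -0.015 to 0.043 for Mef2c and -0.095 to 0.091 for Nkx2-5. The cause of these shifts was not tested. Isl1, with 14 to 34 counts per library, is the member most limited by depth.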
